A study of Mus musculus with 2 samples.

Results

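The genes described here are 10 transcription factor genes of the oligodendrocyte lineage: Olig1, Olig2, Sox10, Nkx2-2, Nkx6-2, Myrf, Sox8, Sox6, Sox4 and Sox11. They were chosen by their known function, with earlier results of these data already known, and every probe set whose platform gene symbol is 1 of these names was taken, which gave 27 of 45037 probe sets and 10 of the 18193 genes on the array. White matter RNA of optic nerve and tract was measured on 2 arrays, 1 of a pool from male CD47 KO mice (labelled CD47 null, Cd47-/-) of 12 to 15 weeks and 1 of a pool from male wild-type (WT) mice of 13 to 15 weeks. The labels give the animals in each pool in opposite ways, as 4 CD47 KO and 5 WT mice in the series description and as 5 CD47 KO and 4 WT mice in the labelling protocol. The knockout is carried by every cell of the animal, so that it singles out no cell type, and a pool hides the spread between its animals. With 1 array per genotype no test was possible, all differences below lack a replicate check, and the number of arrays limits their precision.

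Oligodendrocytes form the myelin of the optic nerve and tract and arise from dividing precursors. Olig2, a basic helix-loop-helix (bHLH) factor, and Sox10, a factor with a high-mobility-group (HMG) DNA-binding domain, are used from the precursor to the myelinating cell, and Myrf and the homeodomain factors Nkx2-2 and Nkx6-2 join as cells mature and switch on myelin genes. Sox6 holds cells in the precursor state, and the related factors Sox4 and Sox11 are best known from progenitors and immature neurons.

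Values are MAS5 signals on a linear scale, compared as a log2 ratio (CD47 KO over WT). Signals under a floor of 106.4, which is the 50th percentile over both arrays, were raised to it, so that a ratio is only a bound where 1 pool was under the floor. Each gene was represented by its brightest probe set. The targeted gene Cd47 had signals of 1346, 1225 and 838 in the CD47 KO pool on its 3 brightest probe sets, against 3928, 3099.5 and 2156 in the WT pool. A gene counted as measured when 1 or both pools exceeded the floor, which 12473 genes did, and their median log2 ratio was -0.02. In the CD47 KO pool 22360 probe sets exceeded the floor, and in the WT pool 22628. Different probe sets of 1 gene were the sole repeat measurement. The log2 ratios of 4560 pairs with both probe sets at a mean signal of 500 or more differed by 0.27 (root mean square), with 95% within 0.53. Those of 2483 pairs with both under 500 differed by 0.46, with 95% within 0.93. Over all 11653 pairs 95% differed by less than 0.74. Variation between animals and between hybridisations is not part of this spread.

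All 10 genes exceeded the floor in both pools on their brightest probe set. There each had a slightly higher signal in the CD47 KO pool, with log2 ratios from 0.06 for Sox8 to 0.56 for Olig2 and a median of 0.15. A log2 ratio above 0 was found for 46.8% of all measured genes, and for 50.4% of the brightest of 4 equal groups of genes, which holds 6 of the 10. None of the 10 was over 1.5-fold higher, as 4.02% of all genes were, none was over 1.5-fold lower (4.68% of all genes), and none was over 2-fold different (2.03% of all genes). Such ratios were rarer in the brightest group of genes, with 2.05% over 1.5-fold higher and 1.31% over 1.5-fold lower. The direction rests in part on the choice of probe set. With each gene taken as the median over its probe sets 8 of 10 were above 0, with Sox11 at -0.08. Sox10 was at -0.0025, which is a bound set by the floor on its dimmest probe set, so that its median may be lower. Without the probe sets marked _s_at or _x_at, which can also bind other transcripts, 9 of 10 were above 0, Sox11 again being at -0.08.

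**Figure D1:**
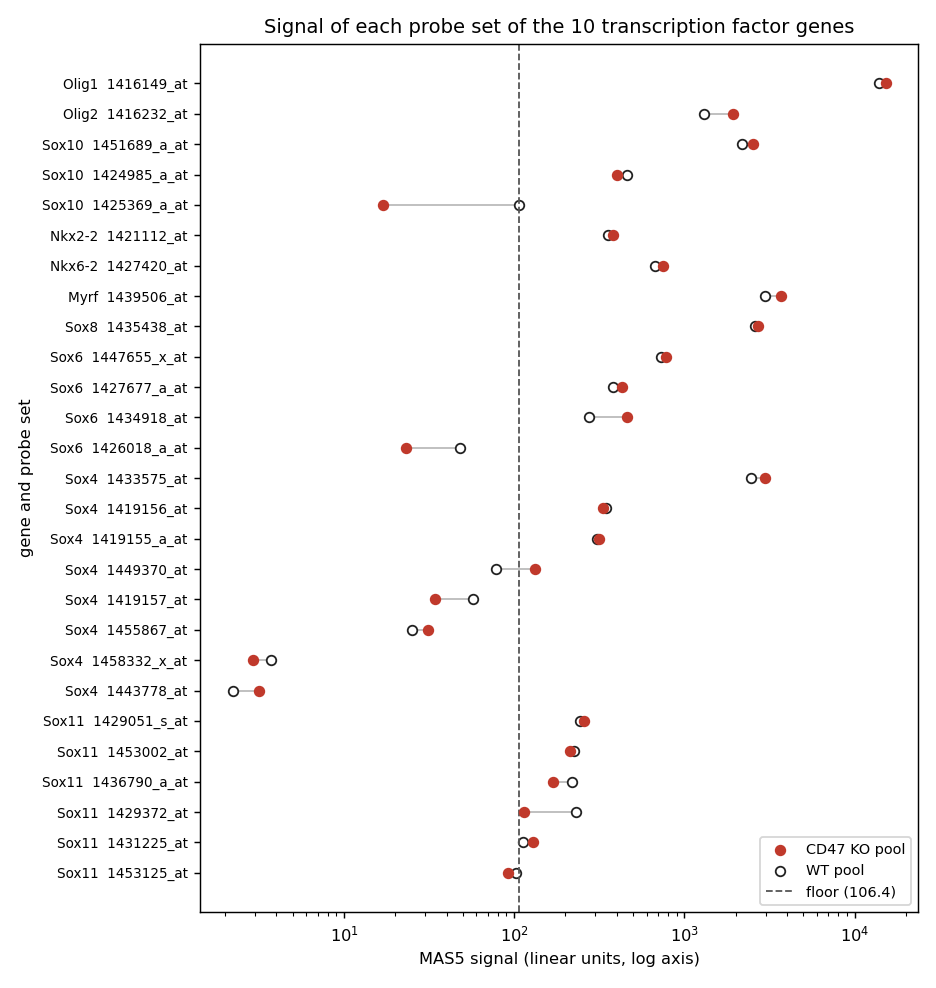
MAS5 signal (horizontal, log axis) of the 27 probe sets of the 10 genes, with 1 filled point for the CD47 KO pool, 1 open point for the WT pool and the floor of 106.4 as a dashed line. For 19 probe sets both points lie above the floor, and for most of these the 2 points nearly touch. Among these 19, Olig2 and the probe sets 1434918_at of Sox6 and 1429372_at of Sox11 have the widest gaps. Some probe sets with a point under the floor, such as 1425369_a_at of Sox10, also have points far apart.

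Among the factors that specify the lineage, Olig2 had the largest difference of the 10 genes. Its only probe set (1416232_at) read 1929.9 in the CD47 KO pool and 1309 in the WT pool, 1.47-fold higher in CD47 KO (log2 ratio 0.56). A ratio this high or higher was found for 550 of the 12473 genes, or 4.41%. That share is over genes of all signals, and large ratios were rarer in the brightest of the 4 groups, to which Olig2 belongs. Olig2 has no further probe set to set beside this one. The 0.53 that contained 95% of the pairs of bright probe sets is a difference between ratios of 1 gene. It is no limit for a single ratio such as that of Olig2. Olig1, the bHLH factor encoded next to Olig2 with 1 annotated non-coding gene between them, read 15271 in the CD47 KO pool and 13883 in the WT pool on its only probe set (1416149_at). The fold was 1.10 (log2 ratio 0.14), and 26.2% of all genes had as high a ratio. The log2 ratio of Olig2 exceeded that of its neighbour Olig1 by 0.42. That is less than the 0.53 that contained 95% of the pairs of bright probe sets of 1 gene.

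Sox10 had 3 probe sets that did not point the same way. The brightest (1451689_a_at) read 2516 in the CD47 KO pool and 2180.2 in the WT pool (1.15-fold, log2 ratio 0.21). The next (1424985_a_at) read 399 in the CD47 KO pool and 461 in the WT pool (log2 ratio -0.21). The dimmest (1425369_a_at) was at 17.0 in the CD47 KO pool and at 106.6 in the WT pool, which is barely above the floor, so that as a bound its log2 ratio was -0.0025. The ending _a_at marks probe sets that read several transcripts of 1 gene, and which transcripts of Sox10 each reads was not examined. The brightest and the next probe set differed by 0.42, less than the 0.74 that contained 95% of all pairs.

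The genes that accompany maturation had 1 probe set each and differed by 1.24-fold at most. Myrf, a membrane-bound factor that is cut to release its DNA-binding part and is needed for myelin gene expression, read 3696 in the CD47 KO pool and 2983 in the WT pool on its only probe set (1439506_at). This was 1.24-fold higher in CD47 KO (log2 ratio 0.31), a ratio reached by 11.8% of all genes. Nkx6-2, a homeodomain factor of mature oligodendrocytes, read 748 in the CD47 KO pool and 672 in the WT pool (1427420_at, 1.11-fold, log2 ratio 0.15). Nkx2-2, a homeodomain factor used as precursors begin to differentiate, read 381 in the CD47 KO pool and 356 in the WT pool (1421112_at, 1.07-fold, log2 ratio 0.10). Sox8, a close relative of Sox10, had the smallest difference, with 2712 in the CD47 KO pool and 2609 in the WT pool (1435438_at, 1.04-fold, log2 ratio 0.06). The ratios of Nkx6-2, Nkx2-2 and Sox8 were reached by 24.1%, 31.5% and 37.8% of all genes.

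Sox6 had the only probe set that was over 1.5-fold higher and above the floor in both pools. The brightest (1447655_x_at) read 776 in the CD47 KO pool and 732 in the WT pool (1.06-fold, log2 ratio 0.08), and its ending _x_at marks probes that may also bind unrelated transcripts. A probe set without such a mark (1434918_at) read 458 in the CD47 KO pool and 274 in the WT pool, 1.67-fold higher (log2 ratio 0.74). Between them stood 1427677_a_at, with 432 in the CD47 KO pool and 379 in the WT pool (log2 ratio 0.19). All 3 probe sets above the floor were thus on the same side, but from 0.08 to 0.74, and the fourth (1426018_a_at) was under the floor in both pools, at 23.2 in CD47 KO and 48.0 in WT.

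Sox4 was measured by 8 probe sets, of which 4 were under the floor in both pools. The brightest (1433575_at) read 2961 in the CD47 KO pool and 2473 in the WT pool (1.20-fold, log2 ratio 0.26). A pair of dimmer ones was near 0, with 330.3 in the CD47 KO pool and 347 in the WT pool for 1419156_at (log2 ratio -0.07). For 1419155_a_at the signals were 315 in the CD47 KO pool and 308 in the WT pool (log2 ratio 0.03). The remaining one (1449370_at) was at 132 in the CD47 KO pool and under the floor in the WT pool, at 78.4, so that it was at least 1.24-fold higher in CD47 KO, and a difference of over 1.5-fold can be neither given nor denied. The ratio of Sox4 was reached by 14.7% of all genes on its brightest probe set and shrank to 0.14 as the median over its probe sets.

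Sox11 had the widest disagreement between probe sets, and none of them was bright. The brightest (1429051_s_at) read 259 in the CD47 KO pool and 243 in the WT pool (1.06-fold, log2 ratio 0.09). The lowest ratio was that of 1429372_at, with 115 in the CD47 KO pool and 231 in the WT pool, 2.02-fold lower in CD47 KO (log2 ratio -1.01), and the CD47 KO signal is close to the floor. Of the others above the floor, 1436790_a_at was at 169 in the CD47 KO pool and 219 in the WT pool (log2 ratio -0.38). The pair 1453002_at and 1431225_at had log2 ratios of -0.08 and 0.18, and 1453125_at was under the floor in both pools. Of its 5 probe sets above the floor 2 were thus above 0 and 3 below, over a range of 1.19, and no direction can be given for Sox11.

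Over all probe sets of the 10 genes, 21 of 27 exceeded the floor in 1 or both pools, and 15 of these had a log2 ratio above 0, or 71.4%, against 48.3% of all 23846 such probe sets. The median was 0.10, against -0.01 over all probe sets. Of the 21, 2 were bounds, 1 of Sox10 and 1 of Sox4, which were counted at the floor as under 1.5-fold and may differ by more. Counted in this way, 1 was over 1.5-fold higher, that of Sox6 (4.45% of all probe sets were), and 1 over 1.5-fold lower, that of Sox11 (4.55% of all). The same Sox11 probe set was over 2-fold lower, and 1.81% of all probe sets, counted likewise, were over 2-fold different. The counts past 1.5-fold are near the shares of all probe sets. The count past 2-fold rests on 1 probe set with its CD47 KO signal close to the floor, and cannot be compared with a share. The 21 probe sets come from 10 genes and are not independent.

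**Figure D2:**
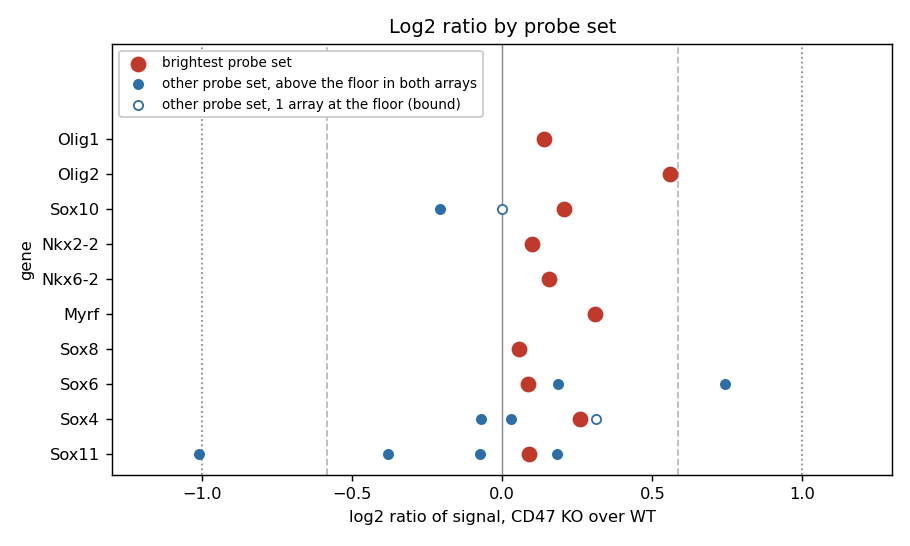
Log2 ratio of signal, CD47 KO over WT (horizontal), of the 21 probe sets that exceeded the floor in 1 or both pools, by gene, with the brightest probe set of each gene as a large red point, other probe sets in blue and bounds as open points. Dashed lines mark 1.5-fold and dotted lines 2-fold. The red points all lie between 0 and the 1.5-fold line, and the probe sets of Sox11 and Sox6 spread most.

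Sequences before the transcript start were taken from RefSeq (GRCm38.p6) for the 7 genes that had an entry, to show the stretch that lies ahead of the gene with the largest and the gene with the smallest ratio and of Sox11, whose probe sets disagreed. Sox10, Olig1 and Myrf were not among them. Of each, the 250 bases before the start are given, 5′ to 3′ along the gene, with capitals marking an E-box (CANNTG, the kind of site that bHLH factors bind, the same on both strands) or the Sox core ACAAT, also as ATTGT on the other strand. The 2 motifs can overlap, as in CAATTGT.
Olig2: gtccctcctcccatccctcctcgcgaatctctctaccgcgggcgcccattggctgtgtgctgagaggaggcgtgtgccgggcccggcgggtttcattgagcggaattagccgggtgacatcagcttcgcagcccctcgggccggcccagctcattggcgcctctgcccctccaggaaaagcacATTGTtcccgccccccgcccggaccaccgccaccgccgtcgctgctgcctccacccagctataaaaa
Sox8: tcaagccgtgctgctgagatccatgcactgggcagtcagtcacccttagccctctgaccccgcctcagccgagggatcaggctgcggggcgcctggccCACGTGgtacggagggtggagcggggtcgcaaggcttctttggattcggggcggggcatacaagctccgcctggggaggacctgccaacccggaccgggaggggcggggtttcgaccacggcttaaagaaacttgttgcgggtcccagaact
Sox11: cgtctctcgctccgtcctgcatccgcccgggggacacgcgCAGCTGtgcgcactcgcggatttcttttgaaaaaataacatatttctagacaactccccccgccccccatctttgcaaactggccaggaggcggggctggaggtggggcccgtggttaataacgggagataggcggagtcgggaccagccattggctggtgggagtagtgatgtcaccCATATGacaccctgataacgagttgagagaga
The Olig2 stretch (chr16:91225300-91225549, plus strand) held 1 Sox core and 0 E-boxes. That of Sox8 (chr17:25570687-25570936, minus strand) held 1 E-box, CACGTG, and 0 Sox cores, and that of Sox11 (chr12:27342719-27342968, minus strand) held 2 E-boxes, CAGCTG and CATATG, and 0 Sox cores. Of the 7 genes, 6 had an E-box and 3 (Olig2, Nkx2-2 and Sox6) a Sox core in at least 1 stretch. Sox6 has 6 starts, so the 7 genes have 12 stretches, of which 11 held an E-box and 5 a Sox core. Over all 32851 such stretches an E-box was found in 66.2% and a Sox core in 27.7%, so that both motifs are common, and a match is a run of letters and not a bound site.

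Other regulators of the lineage went both ways. Of 40 listed genes 36 were measured, 22 had a log2 ratio above 0 and 14 below, none was over 1.5-fold different in either direction, and the median was 0.07. The largest difference was that of Sox3, a factor of progenitor cells, with 262 in the CD47 KO pool and 186 in the WT pool (log2 ratio 0.50). Sox17, which endothelial cells also use, read 120.2 in the CD47 KO pool and 169 in the WT pool (log2 ratio -0.49), and the nuclear receptor gene Rxrg 189 in the CD47 KO pool and 137 in the WT pool (log2 ratio 0.47). The brightest, the zinc-finger gene Klf9, read 19789 in the CD47 KO pool and 21351 in the WT pool (log2 ratio -0.11). Among the other Sox genes on the array 10 of 14 were measured, with 6 above 0, 4 below and a median of 0.04, against 5 of 5 above 0 for the Sox genes described here by their brightest probe sets. The other Sox genes were compared after the values of the members had been seen.

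The genes that these factors serve were set beside them by stage. Genes of myelin and mature oligodendrocytes, several of which are known targets of Sox10 or Myrf, were all over the floor in both pools for the 21 that were analysed. Their median was 0.11 on the log2 scale, with 16 above 0 and 1 over 1.5-fold higher. That gene was Opalin, a membrane protein gene of myelinating cells, with 6071 in the CD47 KO pool and 3946 in the WT pool (log2 ratio 0.62). The next were Tspan2 at 0.38 and Sirt2 at 0.36, and the brightest, Mobp, was at 0.15. Genes of newly formed oligodendrocytes had a median of 0.39 over 11 measured genes, 10 above 0 and none over 1.5-fold. Of these Mpzl1 was at 0.54, Itpr2 at 0.48 and Gpr17, a receptor gene of committed precursors, at 0.46, with 1845 in the CD47 KO pool and 1337 in the WT pool, whereas the brightest, Bcas1, was at 0.01. Genes of precursors had a median of 0.18 over 13 measured genes, 10 above 0 and 1, Matn4, over 1.5-fold higher (log2 ratio 0.68). Cspg4, which encodes NG2, was at 0.58, Vcan at 0.54 and the brightest, Ptprz1, at 0.01. The defining precursor marker Pdgfra read 2929 in the CD47 KO pool and 3043 in the WT pool, and with C1ql1 and Megf11 it was 1 of the 3 below 0. The median of the 10 transcription factors, 0.15, lay between that of the myelin genes and that of the precursor genes. Relative to the median of the myelin genes Olig2 was higher by 0.45, Myrf by 0.20, Sox4 by 0.15 and Sox10 by 0.10, and the other 6 were within 0.06 of it. In bulk RNA, a different number of cells of a type and a different amount of RNA per cell cannot be told apart.

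**Figure D3:**
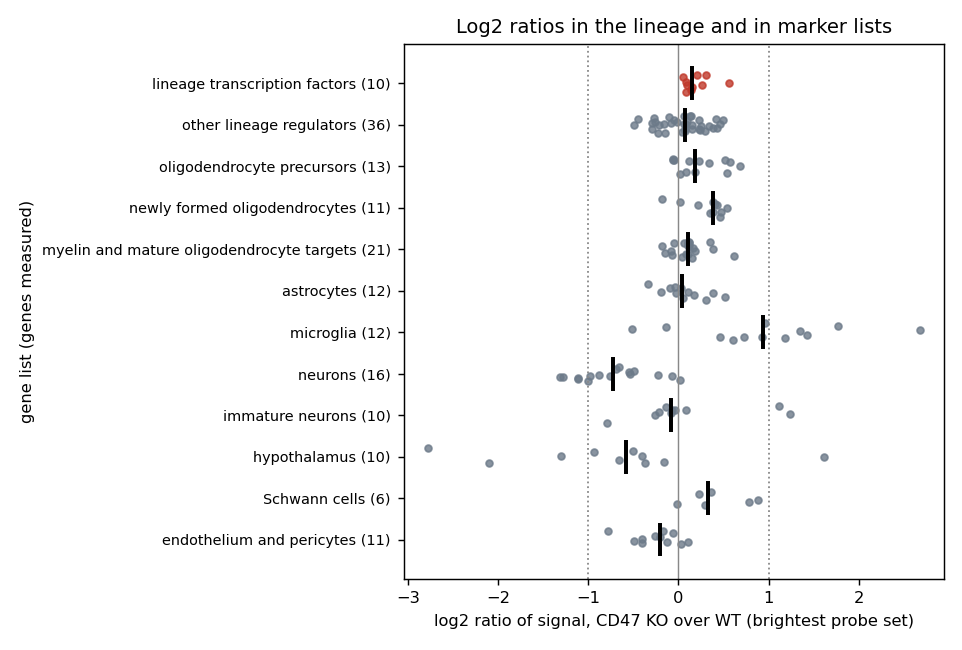
Log2 ratio of signal, CD47 KO over WT (horizontal), of each measured gene by its brightest probe set, with the 10 transcription factors in red, other lists in grey, the number of genes in brackets, list medians as black bars and dotted lines at 2-fold. The transcription factors cluster between 0.06 and 0.56, while the microglia list (median 0.94) and the neuron list (median -0.72) lie to either side.

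Several of the 10 genes are also used outside the lineage, Sox4 and Sox11 in immature neurons and other progenitors, Sox6 in some neurons, and Sox10 in Schwann cells, and marker lists of such cells and of others were therefore compared between the pools. Neuronal genes had a median log2 ratio of -0.72, 15 of 16 were below 0 and 5 over 2-fold lower, and their summed signal was 17141 in the CD47 KO pool and 27734 in the WT pool. The largest were Nefm (-1.32), Slc17a6 (-1.28) and Gad1 (-1.12), followed by Vsnl1 (-1.11) and Rbfox3 (341 in the CD47 KO pool and 682 in the WT pool), and the brightest was Snap25 (-0.98). Genes of immature neurons had a median of -0.08 over 10 genes, of which Sox11 is 1, with 3 above 0, and a summed signal of 44126 in the CD47 KO pool and 41528 in the WT pool. In that list Cd24a was at 1.12, Igfbpl1 was at least 2.36-fold higher, Dlx2 was at -0.79, the brightest, Stmn1, was at -0.03, and the defining marker Dcx read 144 in the CD47 KO pool and 173 in the WT pool. Hypothalamic genes had a median of -0.58 over 10 measured genes, with Pmch at -2.78, Npy at -2.10, Sim1 at -1.31, Pomc at 1.62 and the brightest, Avp, at -0.16, and a summed signal of 30022 in the CD47 KO pool and 38107 in the WT pool. Avp read 22364 in the CD47 KO pool and 24982 in the WT pool, so a hypothalamic gene was bright in both. The dissected pieces may have held different shares of neighbouring tissue in the 2 pools. With 1 array per genotype, such a difference cannot be told apart from the genotype, and its part in the ratios of the 10 genes was not tested. The part of neuronal RNA in the values of Sox4, Sox6 and Sox11 was not tested either.

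Of the Schwann cell list, 6 of 10 genes were measured and 2 (Ncmap and Pmp2) were under the floor, with a median of 0.33 and a summed signal of 5026 in the CD47 KO pool and 4071 in the WT pool. Dhh was at 0.88, Egr2 was at least 1.72-fold higher with its WT signal under the floor, and Erbb3 and the brightest, Cdh19, both of which the oligodendrocyte lineage also expresses, were at 0.36 and 0.23. Their part in the value of Sox10 was not tested. Microglial genes had a median of 0.94 over 12 measured genes, 10 above 0 and 5 over 2-fold higher, Trem2 (2.68), Tyrobp (1.77), C1qc (1.43), Cx3cr1 (1.35) and C1qa (1.18), with the brightest, Ctss, at 0.73. The remaining 2 were below 0, Tmem119 with 842 in the CD47 KO pool and 1205 in the WT pool (log2 ratio -0.52) and P2ry12 (log2 ratio -0.14). The list had a summed signal of 106349 in the CD47 KO pool and 57012 in the WT pool. Astrocyte genes had a median of 0.04 over 12 genes, with Gfap at 0.52, Sox9 at 0.38, Gjb6 at -0.34 and the brightest, S100b, at -0.04, and a summed signal of 150117 in the CD47 KO pool and 142131 in the WT pool. Genes of the endothelium and pericytes had a median of -0.21 over 11 measured genes, with Kdr at -0.79, Sox17 at -0.49, Flt1 at -0.41 and the brightest, Itm2a, at -0.26, and a summed signal of 19109 in the CD47 KO pool and 22179 in the WT pool. The ratios of the 10 transcription factors lay within the range of those of the astrocyte genes except for that of Olig2.

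**Figure D4:**
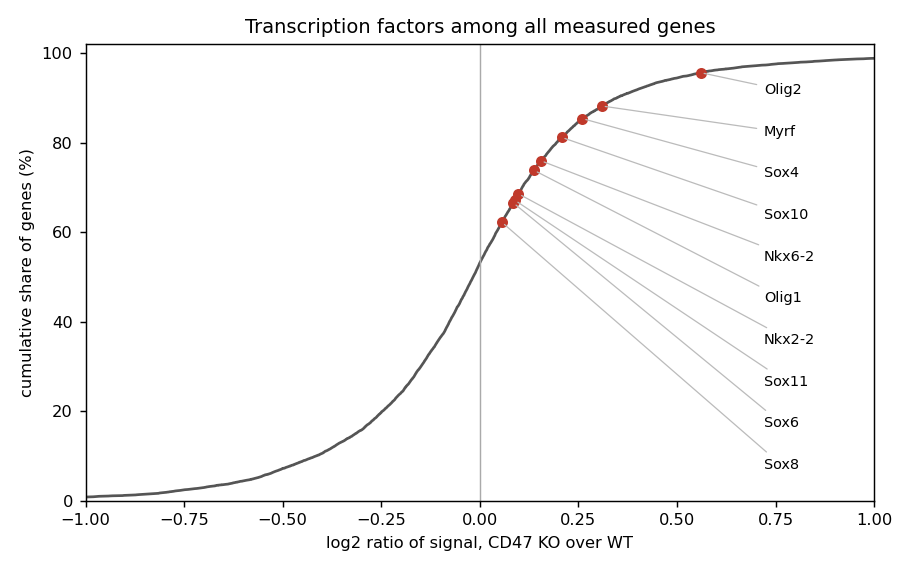
Cumulative share (vertical, percent) of the 12473 measured genes by log2 ratio of signal, CD47 KO over WT (horizontal, shown from -1 to 1), with the 10 transcription factors as red points on the curve. Olig2 lies in the upper tail, where 4.41% of genes are as high or higher, and Sox8, Sox6, Sox11 and Nkx2-2 lie close together at the lower end of the set.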

How the data were processed

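Pooled total RNA of the optic nerve and optic tract was made into biotinylated cRNA with a 3' IVT kit and hybridised to GeneChip Mouse Genome 430 2.0 arrays, 1 per genotype. The authors scanned them with Command Console and processed them with Expression Console, and MAS5 is named in the submitters' processing notes, with no version given in the sources used here. Each deposited value is the linear MAS5 intensity of a probe set, scaled by the authors so that the mean of each array without the outer 2% at each end was 500.003. MAS5 detection calls were not used here. MAS5 values near background are noisy, and the floor limits this but shortens ratios of dim genes.

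From the deposited intensity table of 45101 probe sets, 64 control probe sets were left out. In the platform annotation 34945 probe sets had 1 gene symbol, 932 several and 9160 none, and only those with 1 were used for genes, of which 34741 were matched by gene identifier to RefSeq names (GRCm38.p6). Signals were floored, log2 ratios taken and each gene represented by its brightest probe set (mean log2 signal). Thresholds of 1.5-fold and of 2-fold, of which the study used the second, were counted against all measured genes. No p-value, SD or standard error can be given. The steps were tested on simulated signals.

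The members and the gene lists were chosen with earlier results of these data known. Named were all members, and of each list the 3 genes with the largest absolute log2 ratio, the brightest, and those over 2-fold where there were 5 or fewer. Dcx, Pdgfra, C1ql1, Megf11, Tmem119 and P2ry12 were named outside this rule, after their values were seen. The alternatives were other floors, no floor, quantile, median and loess normalisation, the median over probe sets, and leaving out probe sets marked _s_at or _x_at. Python 3.11.15, numpy 2.4.6, pandas 2.3.3 and statsmodels 0.14.6 (lowess, span 0.3) were used.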

Additional observations from a re-analysis of the deposited data

How the results depend on the processing

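The median log2 ratio of the 10 genes was 0.15 and lay between 0.14 and 0.17 under the 8 alternatives, and the count of genes over 1.5-fold or 2-fold was 0 under each of them. The count above 0 was 10 in all but 2 of them, at 8 with the median over probe sets and 9 without probe sets marked _s_at or _x_at. The 3 normalisations turned the direction of none of the 10 genes. The 3 changes of the floor could not move any of them, since each brightest probe set exceeds even the highest floor, 187, in both pools, and they are no sign of stability. Sox10 had a ratio below 0 in 1 alternative and Sox11 in 2, down to -0.0025 and -0.08. That value of Sox10 is a bound set by the floor and may be lower. The ratio of Olig2 stayed between 0.56 and 0.57 and that of Myrf between 0.31 and 0.32, each resting on 1 bright probe set. Sox6 ranged from 0.08 to 0.19 and Sox4 from 0.14 to 0.27. No paired analysis was possible because each genotype has 1 array. Neither could an array be left out, so that the variation between mice is unknown. The dim probe sets of Sox11, Sox4 and Sox10, close to the floor, limit what can be said of these genes.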
